A study of Homo sapiens with 2 samples.

Results

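The histone genes examined here were all gene symbols of the HIST1 to HIST4 clusters and of the H2AF, H3F3 and H1F families that had 20 or more unique molecular identifiers (UMIs) over both libraries. Of 36601 genes in the count tables, 88 symbols matched and 41 reached 20 UMIs. These were 31 replication histone genes with HIST symbols, 9 replacement histone genes (H3F3A, H3F3B, H2AFZ, H2AFV, H2AFX, H2AFY, H2AFJ, H1F0 and H1FX) and 1 antisense transcript (H1FX-AS1). Just inside the limit were HIST1H4F at 20 UMIs and HIST2H3PS2 at 22 UMIs, and just outside it were HIST1H2BD and HIST1H3I at 16 UMIs each.

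The cells were human umbilical vein endothelial cells (HUVECs), a primary vascular endothelial cell, grown for about 48 h into a monolayer lining 50 µm microfluidic channels. In the 5% pdRBC library the channels were then perfused for 4 h with healthy red blood cells of which 5% were pharmacologically dehydrated cells (pdRBC), which nystatin and washes in sucrose had brought to 40 to 42 g of hemoglobin per dL of cells. In the hRBC library they were perfused for 4 h with healthy red blood cells (hRBC) alone. Cells of each device were profiled with the 10x Genomics 5′ version 2 single-cell kit. The number of donors is not given in the sources used here, and with 1 library per group the difference between libraries has no replicate check, so treatment and library cannot be told apart.

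Replication histones (the core histones H2A, H2B, H3 and H4 and the linker histone H1 from the HIST clusters) are made when DNA is copied and package the new strand. Their mRNAs are the best known animal mRNAs that end in a conserved stem-loop instead of a poly(A) tail, and stem-loop binding protein handles that end. Replacement histones such as H3.3 (H3F3A, H3F3B), H2A.Z (H2AFZ, H2AFV), macroH2A (H2AFY) and H1.0 (H1F0) are made outside S phase as well, from polyadenylated mRNAs. The 10x kit primes reverse transcription on poly(A), so levels of HIST genes here describe what such a kit captures.

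In the GENCODE release 29 annotation of GRCh38, 27 of the 31 HIST genes lay on chromosome 6, between positions 26017085 and 27867529, and 4 lay on chromosome 1. The replacement genes were spread over 9 chromosomes. The stem-loop was found in the annotated transcripts of 14 of the 31 HIST genes, and in H2AFX alone of the 9 replacement genes; many of the other HIST models hold little beyond the coding region, so that no match says nothing of the mRNA's end. Sites of 5 members are shown because their genes behaved differently in cycling cells, with the stem-loop in capitals, 5 bases on each side in lower case, and GRCh38 positions from GENCODE.
HIST1H2AI (chr6:27808642-27808667, plus strand): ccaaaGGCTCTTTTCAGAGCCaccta
HIST1H2AC (chr6:26124664-26124689, plus strand): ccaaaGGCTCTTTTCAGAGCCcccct
HIST1H2BC (chr6:26123467-26123492, minus strand): ccaaaGGCTCTTTTAAGAGCCaccca
HIST1H4H (chr6:26285126-26285151, minus strand): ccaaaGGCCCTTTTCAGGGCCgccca
H2AFX (chr11:119094893-119094918, minus strand): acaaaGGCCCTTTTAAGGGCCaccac
HIST1H2AI and HIST1H2AC share the same 16 bases, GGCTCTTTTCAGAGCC, which 9 genes had. HIST1H2AI was 10.2-fold higher in cycling cells and HIST1H2AC 0.58-fold, as described further on.

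The 5% pdRBC library had 1635 barcodes, 1601 of them kept as cells (1000 or more UMIs, 500 or more genes, at most 20% mitochondrial UMIs), and the hRBC library had 3858 barcodes with 2555 kept. Kept cells held 16127985 UMIs in 5% pdRBC and 13335148 UMIs in hRBC, with medians of 9566 UMIs per cell in 5% pdRBC and 2175 in hRBC. All 10 endothelial markers were measured in each library, while erythroid markers summed to 0.062 counts per 1000000 UMIs (CPM) in 5% pdRBC and 0.9 CPM in hRBC, with 5 of 6 at 0 in each. The libraries shared 6 barcodes among kept cells. Levels are CPM of UMIs summed over cells, intervals are exact 95% intervals of counting error only, and PCR and cell sampling add error that they do not cover.

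Between libraries, the replication histones were lower in 5% pdRBC as a sum, at 104 CPM (1671 UMIs) in 5% pdRBC and 159 CPM (2123 UMIs) in hRBC, which is 1.54-fold lower (1.44 to 1.64). The replacement histones summed to 2341 CPM in 5% pdRBC and 2468 CPM in hRBC, 1.05-fold lower (1.04 to 1.07). HIST genes thus made up 4.23% of the histone UMIs in 5% pdRBC and 6.05% in hRBC. By protein family, HIST H1 genes summed to 21.02 CPM in 5% pdRBC against 47.5 CPM in hRBC and HIST H4 genes to 26.1 CPM against 54.1 CPM in hRBC. HIST H2A genes (27.0 CPM in 5% pdRBC, 28.8 CPM in hRBC), H2B genes (22.9 CPM in 5% pdRBC, 21.1 CPM in hRBC) and H3 genes (6.63 CPM in 5% pdRBC, 7.65 CPM in hRBC) had folds whose intervals held 1.

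Of the 16 members with 100 or more UMIs, 3 were at least 1.5-fold lower in 5% pdRBC with an interval that left out 1, where 1.09% of 11043 genes were, and 0 were higher, where 1.55% were. HIST1H4C, a histone H4 gene (chr6:26103876-26104310), was at 21.5 CPM in 5% pdRBC (347 UMIs in 236 cells) and 50.5 CPM in hRBC (673 UMIs in 390 cells), 2.34-fold lower (2.06 to 2.68). HIST1H1E, which encodes linker histone H1.4 (chr6:26156354-26157107), was at 10.2 CPM in 5% pdRBC and 28.6 CPM in hRBC, 2.81-fold lower (2.34 to 3.40). HIST1H1C, which encodes H1.2 (chr6:26055787-26056428), was at 6.63 CPM in 5% pdRBC and 12.9 CPM in hRBC, 1.94-fold lower (1.52 to 2.499). Without these 3 genes, chosen after their values were seen, the other 28 HIST genes summed to 65.3 CPM in 5% pdRBC and 67.2 CPM in hRBC, 1.03-fold lower with an interval that held 1 (0.94 to 1.13).

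**Figure D1:**
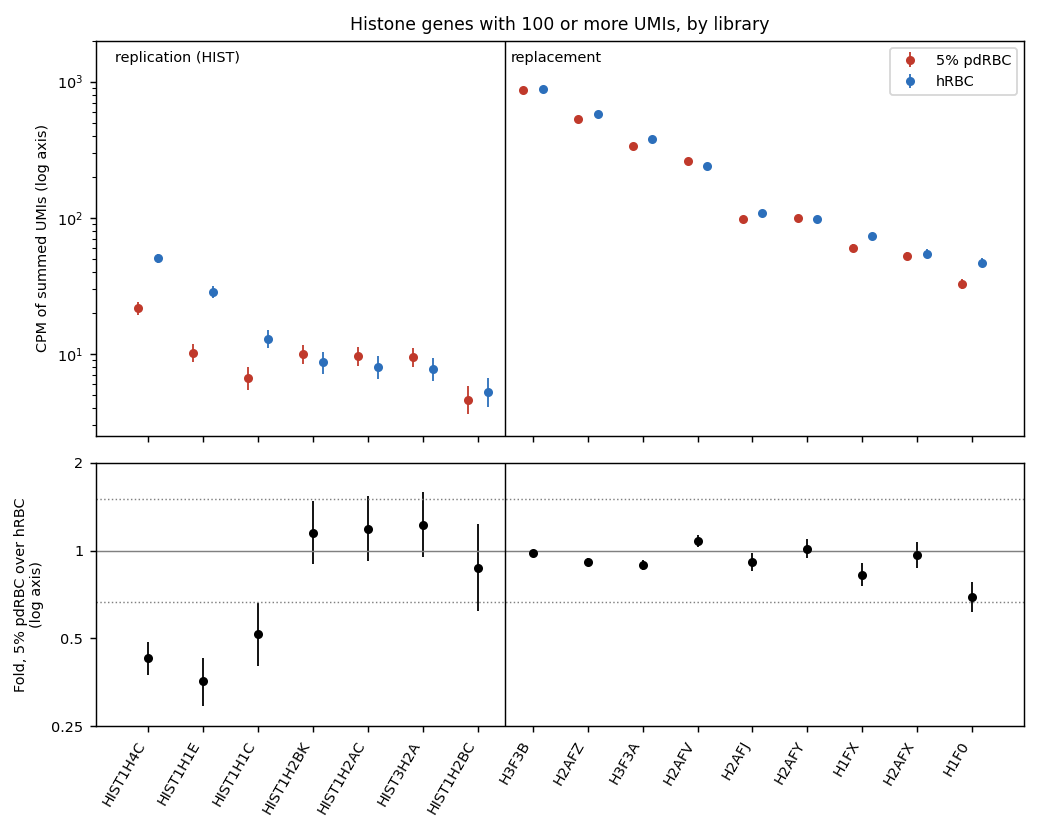
CPM of summed UMIs (upper panel, log axis) in the 5% pdRBC and hRBC libraries for the 16 histone genes with 100 or more UMIs, and the fold of 5% pdRBC over hRBC (lower panel, log axis, dotted lines at 1.5-fold); bars are 95% counting intervals. HIST1H4C, HIST1H1E and HIST1H1C lie below the lower dotted line, and the replacement histones lie between 0.69 and 1.08.

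The 4 other HIST genes of this depth differed by less than their intervals. HIST1H2BK, an H2B gene, was at 9.92 CPM in 5% pdRBC and 8.62 CPM in hRBC. HIST1H2AC, an H2A gene, was at 9.55 CPM in 5% pdRBC and 8.02 CPM in hRBC, and HIST3H2A was at 9.49 CPM in 5% pdRBC and 7.72 CPM in hRBC. HIST1H2BC was at 4.59 CPM in 5% pdRBC and 5.25 CPM in hRBC.

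Among replacement histones none reached 1.5-fold over all kept cells. H1F0, the linker histone known for its accumulation in resting and differentiated cells, was at 32.4 CPM in 5% pdRBC and 46.7 CPM in hRBC, 1.44-fold lower (1.28 to 1.62). H1FX, another linker histone, was at 60.1 CPM in 5% pdRBC and 72.8 CPM in hRBC. The others ranged from 0.89-fold (H3F3A, 339 CPM in 5% pdRBC and 381 CPM in hRBC) to 1.08-fold (H2AFV, 260 CPM in 5% pdRBC and 241 CPM in hRBC). H3F3B was at 871 CPM in 5% pdRBC and 888 CPM in hRBC, and H2AFZ at 528 CPM in 5% pdRBC and 579 CPM in hRBC. H2AFX, whose product is phosphorylated at DNA breaks, was at 52.5 CPM in 5% pdRBC and 54.3 CPM in hRBC. H2AFY was at 99.3 CPM in 5% pdRBC and 97.7 CPM in hRBC, and H2AFJ at 98.5 CPM in 5% pdRBC and 108 CPM in hRBC. The median log2 fold was -0.13 over the 16 members and 0.02 over all 11043 genes.

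Taking the limit down to 20 UMIs, 40 members were measured, and 8 were lower in 5% pdRBC (1.66% of 14256 genes) and 2 were higher (2.44% of them). The 5 further lower genes, named after their values were seen, were HIST1H2AI (32 UMIs in 5% pdRBC, 60 UMIs in hRBC), HIST1H2AG (9 in 5% pdRBC, 29 in hRBC), HIST1H3B (9 in 5% pdRBC, 26 in hRBC), HIST2H2AC (23 in 5% pdRBC, 36 in hRBC) and H1FX-AS1 (30 in 5% pdRBC, 69 in hRBC). Those higher were HIST1H2BG (30 UMIs in 5% pdRBC, 9 UMIs in hRBC) and HIST1H4H (51 UMIs in 5% pdRBC, 25 UMIs in hRBC). H1FX-AS1 overlaps H1FX on the opposite strand, and whether reads were counted by strand is not given in the sources used here. HIST genes also have near-identical copies, among which the counting could split or drop reads.

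Cycling state was called from S phase and G2/M marker lists that hold no histone gene, in cells of 2000 or more UMIs thinned to 2000 UMIs, while levels are from the full counts. In 5% pdRBC, 81 of 1557 cells were called G2/M (5.20%, exact interval 4.15 to 6.42) and 29 S (1.86%, 1.25 to 2.66). In hRBC, 114 of 1375 cells were called G2/M (8.29%, 6.89 to 9.88) and 26 S (1.89%, 1.24 to 2.76). The minimum of 2000 UMIs left out 44 kept cells in 5% pdRBC and 1180 in hRBC. States thus describe 97.3% of kept cells in 5% pdRBC and 53.8% in hRBC. The calls split a range: 100 cells in 5% pdRBC and 158 in hRBC had 3 to 7 marker UMIs, around the minimum of 5. Between libraries, 16 of 39 measured G2/M markers and 1 of 27 measured S phase markers were lower in 5% pdRBC, where 1.09% of all genes were, and 0 of either list were higher (1.55%); the part of cycling cells in the library difference of the sums was not tested.

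Both classes were higher in cycling cells as sums. In 5% pdRBC the replication sum was 3.601-fold higher in G2/M cells than in cells called neither (3.12 to 4.13) and 4.70-fold in S cells (3.93 to 5.56). In hRBC these folds were 2.69 in G2/M cells (2.37 to 3.04) and 3.83 in S cells (3.01 to 4.76). The replacement sum was 1.79-fold in G2/M cells and 1.94-fold in S cells of 5% pdRBC, and 1.75-fold in G2/M cells and 1.65-fold in S cells of hRBC. With HIST1H4C in the replication sum, the intervals of the class folds did not overlap in either state of either library. Without it, left out after values were seen, the replication sum was 2.92-fold in G2/M cells (2.45 to 3.44) and 3.03-fold in S cells of 5% pdRBC (2.37 to 3.78), and 2.99-fold in S cells of hRBC (2.14 to 4.01). In G2/M cells of hRBC it was then 1.82-fold (1.51 to 2.16), an interval that holds the replacement histones' 1.75. The replacement sum without H2AFZ, H2AFV and H2AFX, also left out after values were seen, was 1.15-fold in G2/M cells of 5% pdRBC (1.08 to 1.21) and 1.11-fold in those of hRBC (1.06 to 1.17).

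Summing both libraries, 39 members had 20 or more UMIs in these cells, and 18 were higher in S and G2/M cells together than in cells called neither, where 10.1% of 14083 genes were; 1 was lower, where 3.52% were. Of 29 HIST genes, 14 were higher and 1 was lower, and 4 of 9 replacement histones were higher. By family, 5 of 5 HIST H1 genes, 4 of 8 H2A, 1 of 6 H2B, 3 of 7 H3 and 1 of 3 H4 genes were higher.

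The linker histone HIST1H1B, which encodes H1.5, was at 20.4 CPM in cycling cells (48 UMIs) and 0.59 CPM in cells called neither (15 UMIs), 33.8-fold higher (19.0 to 66.5); it and the other genes under 100 UMIs are named after their values were seen. HIST1H3B, an H3 gene, had 18 UMIs in cycling cells and 8 in the far more numerous cells called neither, a 23.5-fold difference (10.1 to 64.7). HIST1H2AJ was 19.7-fold higher, HIST1H3C 14.01-fold and HIST1H1D 11.5-fold. Read within each library, HIST1H3C was 24.8-fold higher in 5% pdRBC (9.68 to 75.0) and had 3 UMIs in cycling cells of hRBC, where its interval held 1 (0.72 to 20.7), and HIST1H1D was 32.7-fold higher in 5% pdRBC (10.4 to 152) and 4.23-fold in hRBC (1.10 to 12.6). HIST1H4C was at 150 CPM in cycling cells and 23.0 CPM in cells called neither, 6.53-fold higher (5.70 to 7.46). HIST1H1E followed at 40.0 CPM in cycling cells and 10.9 CPM in cells called neither (3.68-fold), and HIST1H1C at 20.01 CPM in cycling cells and 6.73 CPM in cells called neither (2.99-fold). The median in hRBC was 4465 UMIs in G2/M cells, 2796.5 UMIs in S cells and 7360 UMIs in cells called neither. At 10000 or more UMIs in hRBC, HIST1H1E was at 7.65 CPM in G2/M cells (6 UMIs) and 4.82 CPM in cells called neither. HIST1H1C was there at 2.55 CPM in G2/M cells (2 UMIs) and 6.20 CPM in cells called neither. In 5% pdRBC at that depth, HIST1H1E was at 30.2 and 5.69 CPM and HIST1H1C at 18.9 and 4.63 CPM in these states. The part of depth was not tested.

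Other HIST genes did not share this pattern. HIST3H2A was 2.02-fold lower in cycling cells, at 4.26 CPM against 9.02 CPM in cells called neither. HIST1H2AC was at 5.11 CPM in cycling cells and 9.09 CPM in cells called neither (0.58-fold, 0.29 to 1.00), and HIST1H2BK at 5.96 CPM in cycling cells and 9.65 CPM in cells called neither (0.64-fold, 0.33 to 1.06). HIST1H2BC was at 0.74-fold, with 8 UMIs in cycling cells. In all 8 of 29 HIST genes had a fold under 1, and of 4 members on a list of HIST genes known for polyadenylated transcripts (HIST1H1C, HIST1H2AC, HIST1H2BK and HIST2H2BE) HIST1H1C alone was higher.

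**Figure D2:**
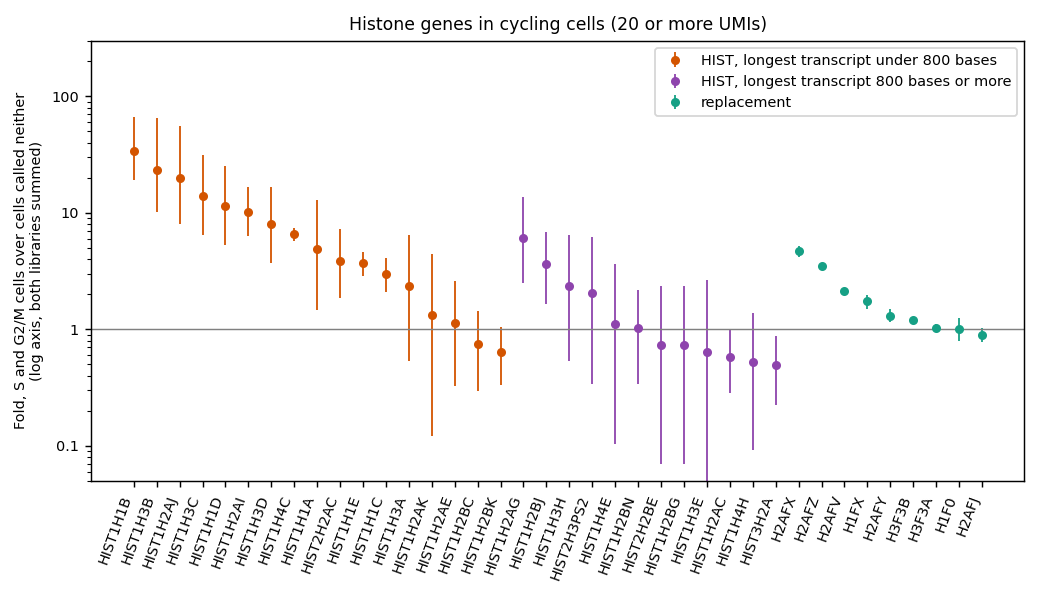
Fold of S and G2/M cells over cells called neither (log axis, both libraries summed) for each HIST and replacement histone with 20 or more UMIs, with 95% counting intervals; 1 lower bound runs past the axis. HIST genes with annotated transcripts under 800 bases reach 33.8-fold, most of the longer ones lie near or below 1, and H2AFX and H2AFZ lead the replacement histones.

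A split by annotated length, drawn after these values were seen, separated many of them. The 18 HIST genes whose longest GENCODE transcript was 312 to 754 bases summed to 295 CPM in cycling cells and 49.5 CPM in cells called neither of 5% pdRBC (5.96-fold, 5.22 to 6.78), and to 312 CPM in cycling cells and 89.0 CPM in cells called neither of hRBC (3.51-fold, 3.10 to 3.95). The 13 with a transcript of 895 to 4137 bases summed to 38.7 CPM in cycling cells and 34.9 CPM in cells called neither of 5% pdRBC (1.12-fold, 0.80 to 1.51), and to 25.3 CPM in cycling cells and 28.9 CPM in cells called neither of hRBC (0.89-fold, 0.58 to 1.27). The longer group held 11 of the 14 genes with a stem-loop match, as its models run past the stem-loop. HIST1H2AG at 6.14-fold and HIST1H2BJ at 3.604-fold were the exceptions called higher among the longer ones with 20 or more UMIs. The longer HIST1H2BH, under that limit (8 UMIs in cycling cells, 11 in cells called neither), was 7.99-fold (2.75 to 21.5). Of 17 shorter ones with 20 or more UMIs, 12 were higher. HIST1H2BC and HIST1H2BK had folds under 1, and HIST1H2AE (1.13), HIST1H2AK (1.32) and HIST1H3A (2.37) had intervals that held 1.

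Among replacement histones, H2AFX (186 CPM in cycling cells, 39.8 CPM in cells called neither) was 4.67-fold higher (4.16 to 5.22), and H2AFZ (1567 CPM in cycling cells, 452 CPM in cells called neither) 3.47-fold (3.34 to 3.599). H2AFV, the second H2A.Z gene, was 2.12-fold higher and H1FX 1.73-fold. Below 1.5-fold were H2AFY (1.31), H3F3B (1.21), H3F3A (1.03), H1F0 (1.01) and H2AFJ (0.90), so that both genes of H3.3 were within 1.3-fold of their level in cells called neither. H2AFX, alone among replacement histones, has the stem-loop printed above. In cells thinned to 2000 UMIs, H2AFX was seen in 35.8% of G2/M cells, 41.4% of S cells and 8.15% of cells called neither in 5% pdRBC.

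Levels by state were also read within each library. For HIST1H4C, they were in 5% pdRBC 96.9 CPM in G2/M, 182 CPM in S and 13.5 CPM in cells called neither, and in hRBC 169 CPM in G2/M, 208 CPM in S and 36.6 CPM in cells called neither. S cells exceeded G2/M cells 1.88-fold in 5% pdRBC (1.34 to 2.64) and 1.24-fold in hRBC, where the interval held 1 (0.84 to 1.76). HIST1H1E had 47.2 CPM in G2/M, 21.1 CPM in S and 7.38 CPM in cells called neither of 5% pdRBC, and 34.9, 76.7 and 15.9 CPM in the same states of hRBC; its S values rest on 8 UMIs in 5% pdRBC and 14 UMIs in hRBC. In G2/M cells 7 of 15 measured members were higher in 5% pdRBC, where 10.3% of all genes were, and 7 of 12 in hRBC, where 8.81% were. None of these was lower in G2/M cells, where 3.48% of all genes were in 5% pdRBC and 4.95% in hRBC. In S cells 7 of 14 members were higher in 5% pdRBC (9.6% of all genes) and 6 of 11 in hRBC (6.72%), with 0 lower in 5% pdRBC (3.41%) and 1, H2AFJ, lower in hRBC (2.52%).

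HIST1H4C was lower in 5% pdRBC in cells called neither and in G2/M cells. In cells called neither it was 2.71-fold lower in 5% pdRBC (2.28 to 3.23), in G2/M cells 1.74-fold lower (1.33 to 2.32), and in S cells 0.87-fold with an interval that held 1 (0.58 to 1.34). HIST1H1E was 0.47-fold in cells called neither (0.36 to 0.59) and 0.28-fold in S cells (0.10 to 0.70), on few UMIs. In G2/M cells HIST1H1E was 1.35-fold with an interval that held 1 (0.83 to 2.21). In cells thinned to 2000 UMIs, HIST1H4C was seen in 2.76% of cells called neither in 5% pdRBC (exact interval 1.98 to 3.75; 12.4% before thinning) and 6.72% of those in hRBC (5.39 to 8.26; 20.8% before thinning). No cell type that should lack the gene was set apart here, so a background share could not be given; HBB, from red cells, was seen in 0 of 1557 cells of 5% pdRBC and 2 of 1375 cells of hRBC. By marker UMIs per thinned cell, from 0 through 1, 2, 3 to 4 and 5 to 9 to 10 or more, HIST1H4C was at 10.8, 13.5, 22.1, 20.2, 94.1 and 140.5 CPM in 5% pdRBC and at 25.6, 29.5, 41.6, 82.8, 190 and 145 CPM in hRBC. In cells called neither, 3 of 16 members were lower in 5% pdRBC (1.04% of all genes) and 0 were higher (1.71%). The replication sum was 0.72-fold in 5% pdRBC in cells called neither (0.66 to 0.77). Its intervals held 1 in G2/M cells (0.96-fold, 0.81 to 1.14) and in S cells (0.88-fold, 0.67 to 1.17). The replacement sum was 0.97-fold in cells called neither (0.95 to 0.98), 0.99-fold in G2/M cells (0.95 to 1.04) and 1.14-fold in S cells (1.04 to 1.25).

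Depth of the cells moved with several linker histones. In hRBC, HIST1H1E was at 101 CPM in cells of 1000 to under 2000 UMIs, 74.3 CPM at 2000 to under 5000, 23.8 CPM at 5000 to under 10000 and 5.27 CPM at 10000 or more, 19.0-fold higher in the shallowest than in the deepest cells (13.6 to 27.4). That fold ranked 4 of 8494 genes. In 5% pdRBC the levels were 132 CPM (9 UMIs), 38.6, 10.3 and 7.53 CPM in the same order of depth, so that the shallow cells were high in both libraries. HIST1H1C was 6.06-fold higher at 1000 to under 2000 UMIs than at 10000 or more in hRBC (4.09 to 9.04; rank 13), H1F0 2.30-fold and H1FX 1.62-fold. Of 12 members measured there, these 4 linker histones were higher (6.98% of all genes were), no core histone among the 12 was, and 0 were lower (1.04%). Core HIST genes with fewer UMIs in these ranges were not among the 12, and those named next were picked after values were seen. HIST1H2AI was at 10.9 CPM (18 UMIs) in the shallowest and 0.74 CPM (6 UMIs) in the deepest cells of hRBC. HIST1H3B was at 5.47 (9 UMIs) and 0.61 CPM (5 UMIs), and HIST1H2BJ at 1.22 (2 UMIs) and 1.96 CPM (16 UMIs).

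**Figure D3:**
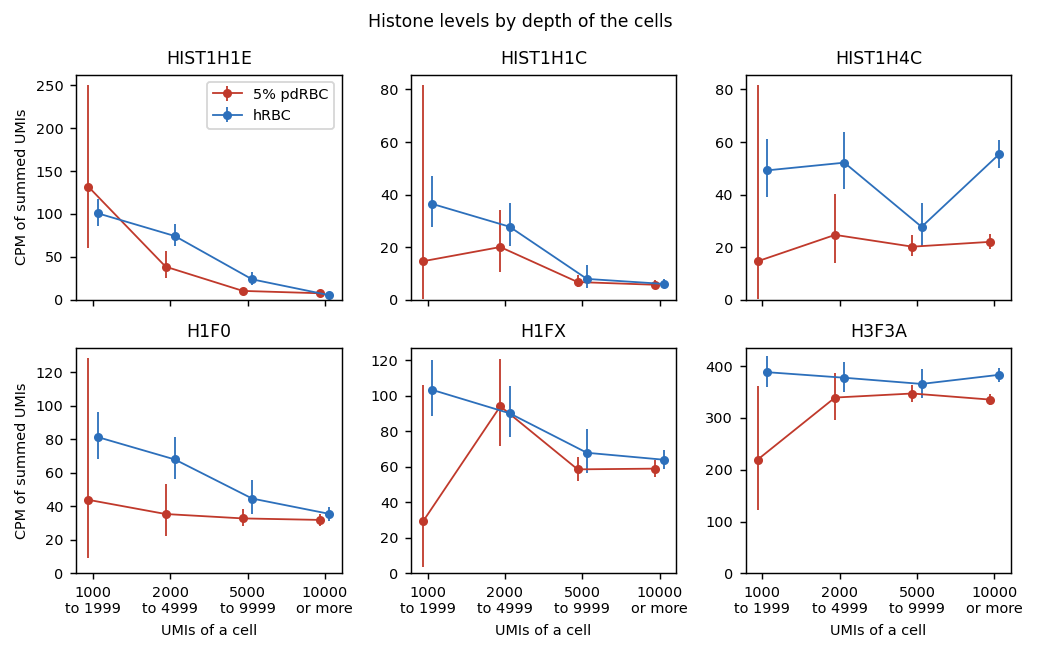
CPM of summed UMIs against the depth of the cells (UMIs of a cell, 4 ranges) for 6 histone genes in 5% pdRBC and hRBC, with 95% counting intervals. HIST1H1E and HIST1H1C are lower at 5000 or more UMIs than at 2000 to under 5000 in both libraries, and HIST1H4C has no steady order, at 49.2, 52.2, 27.7 and 55.3 CPM from the shallowest to the deepest cells of hRBC.

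At 1000 to under 5000 UMIs against 5000 or more, HIST1H1E was 5.69-fold higher in 5% pdRBC (3.74 to 8.26) and 10.1-fold in hRBC (7.97 to 13.1). HIST1H1C was 3.34-fold higher in 5% pdRBC and 5.02-fold in hRBC. In this contrast 3 of 15 members were higher in 5% pdRBC, close to the 17% of all genes that were, and 3 of 15 in hRBC, where 5.01% of all genes were. In neither library was a member lower, where 3.56% of all genes were in 5% pdRBC and 0.824% in hRBC. The replication sum was 2.43-fold higher in the shallower cells of 5% pdRBC (2.05 to 2.84) and 2.33-fold in those of hRBC (2.13 to 2.54), and the replacement sum 0.83-fold in 5% pdRBC and 1.00-fold in hRBC. HIST1H4C was 1.14-fold in 5% pdRBC and 1.01-fold in hRBC, with both intervals holding 1. Among cells called neither, HIST1H1E was at 25.7, 8.51 and 5.69 CPM in 5% pdRBC and at 60.4, 22.5 and 4.82 CPM in hRBC for cells of 2000 to under 5000, 5000 to under 10000 and 10000 or more UMIs.

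The 3 lower genes were also compared in cells of like depth. At 10000 or more UMIs, HIST1H4C was at 22.0 CPM in 5% pdRBC and 55.3 CPM in hRBC, 2.51-fold lower (2.14 to 2.96). HIST1H1E was at 7.53 CPM in 5% pdRBC and 5.27 CPM in hRBC at that depth, 1.42-fold with an interval that held 1 (0.97 to 2.12). In shallower cells it was lower in 5% pdRBC, at 38.6 CPM in 5% pdRBC and 74.3 CPM in hRBC for 2000 to under 5000 UMIs (0.53-fold, 0.32 to 0.80), and at 10.3 CPM in 5% pdRBC and 23.8 CPM in hRBC for 5000 to under 10000 UMIs (0.43-fold, 0.28 to 0.67). At 1000 to under 2000 UMIs, with 9 UMIs in 5% pdRBC, its interval held 1 (0.59 to 2.54). Back at 10000 or more UMIs, HIST1H1C was at 5.70 CPM in 5% pdRBC and 6.01 CPM in hRBC. H1F0 was at 32.0 CPM in 5% pdRBC and 35.5 CPM in hRBC at that depth, and both intervals held 1. HIST1H4C was the 1 member of 15 lower there, where 1.03% of all genes were, and 0 were higher (2.21%). It was also the 1 member of 16 lower at 5000 or more UMIs (0.897% of all genes), where 0 were higher (2.08%). In cells of 5000 to under 10000 UMIs HIST1H4C was at 20.2 CPM in 5% pdRBC and 27.7 CPM in hRBC, with an interval that held 1 (0.51 to 1.05 as fold of 5% pdRBC over hRBC), and in cells of 2000 to under 5000 UMIs at 24.7 CPM in 5% pdRBC and 52.2 CPM in hRBC (0.49-fold, 0.26 to 0.81). The replication sum was 1.16-fold lower in 5% pdRBC at 10000 or more UMIs (1.06 to 1.27) and 1.43-fold lower at 5000 to under 10000 UMIs (1.21 to 1.67). Its intervals held 1 in the ranges of fewer UMIs, at 0.86-fold for 2000 to under 5000 and 1.27-fold for 1000 to under 2000. The replacement sum was 0.96-fold in 5% pdRBC at 10000 or more UMIs (0.94 to 0.98). At 5000 to under 10000 UMIs it was 1.03-fold with an interval that held 1. It was 0.84-fold at 2000 to under 5000 UMIs (0.79 to 0.89) and 0.64-fold at 1000 to under 2000 (0.52 to 0.77, 112 UMIs in 5% pdRBC).

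**Figure D4:**
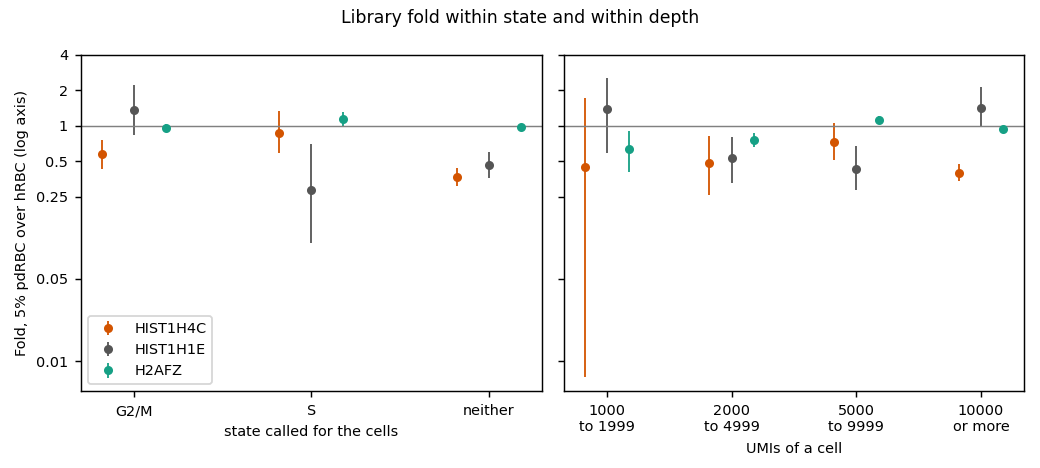
Fold of 5% pdRBC over hRBC (log axis, 95% counting intervals) for HIST1H4C, HIST1H1E and H2AFZ within each called state (left) and within each range of UMIs per cell (right). HIST1H4C intervals lie under 1 in G2/M cells, in cells called neither, at 2000 to under 5000 and at 10000 or more UMIs. They hold 1 in S cells, at 1000 to under 2000 and at 5000 to under 10000 UMIs. HIST1H1E lies under 1 with intervals that leave out 1 in S cells and in cells called neither, and its G2/M interval holds 1. Its intervals also lie under 1 at 2000 to under 5000 and 5000 to under 10000 UMIs. At 10000 or more it lies above 1 with an interval that holds 1. H2AFZ intervals hold 1 in each state. By depth they lie above 1 at 5000 to under 10000 UMIs and under 1 in the other ranges.

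Genes that make or handle histone mRNAs and proteins were read from lists. Of 15 measured genes of histone transcription and 3′ end processing, 0 were higher in 5% pdRBC (1.55% of all genes with 100 or more UMIs were) and 0 were lower (1.09%), so that the counts of 0 are close to these shares. In cycling cells 7 were higher (10.6% of all genes of that depth were) and 0 were lower (4.09%). The 5 with the largest cycling folds were CDK2 (3.88-fold) and CCNE1 (2.64-fold), which form the kinase that activates NPAT, ERI1 (3.00-fold), an exonuclease that trims histone mRNA ends, CASP8AP2 (2.51-fold), a histone locus body protein, and LSM11 (2.10-fold), a subunit of the U7 particle. SLBP, the stem-loop binding protein, was at 106 CPM in cycling cells and 61.1 CPM in cells called neither. Of 24 measured genes on the list of histone chaperones and remodellers, 0 were higher and 0 were lower between libraries, against the same shares. In cycling cells 9 were higher (10.6% of all genes of that depth were) and 0 were lower (4.09%). The largest cycling folds among the 24 were those of HJURP (38.8-fold), ASF1B (27.7-fold), CENPA (16.01-fold), CHAF1A (6.64-fold) and TONSL (4.36-fold). CENPA, counted on this list, is itself a centromeric histone and HJURP is its chaperone, while ASF1B and CHAF1A pass new H3 and H4 to DNA.

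Promoters were read for 38 of the 41 members from RefSeq (GRCh38.p14), as 250 bases before and 50 after each gene's start. The 3 motifs were each searched on both strands. CCAAT was in 28 of 30 HIST promoters and 6 of 8 replacement promoters, against 35.7% of all 27305 promoters. TATAAA was in 19 of 30 HIST and 4 of 8 replacement promoters (12% of all), and the octamer ATTTGCAT, known from H2B promoters, in 12 of 30 HIST promoters, among them 6 of 7 H2B promoters, and in 1 of 8 replacement promoters (1.80% of all). The 250 bases before the start are shown for the HIST gene with the largest fold in cycling cells over both libraries summed, for an H2B gene that was not higher, and for H2AFZ, with matches to the 3 motifs in capitals (overlapping matches run together).
HIST1H1B (chr6:27867589-27867838, minus strand): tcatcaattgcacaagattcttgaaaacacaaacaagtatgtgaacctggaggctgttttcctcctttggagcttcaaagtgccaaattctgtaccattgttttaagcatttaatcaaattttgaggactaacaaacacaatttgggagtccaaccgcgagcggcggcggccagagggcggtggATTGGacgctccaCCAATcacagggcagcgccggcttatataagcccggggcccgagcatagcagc
HIST1H2BK (chr6:27146859-27147108, minus strand): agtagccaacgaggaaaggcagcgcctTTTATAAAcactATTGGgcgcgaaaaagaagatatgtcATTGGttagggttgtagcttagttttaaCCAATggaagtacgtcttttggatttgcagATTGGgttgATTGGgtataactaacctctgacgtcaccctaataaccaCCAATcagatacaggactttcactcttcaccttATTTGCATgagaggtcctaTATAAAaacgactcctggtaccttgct
H2AFZ (chr4:99950276-99950525, minus strand): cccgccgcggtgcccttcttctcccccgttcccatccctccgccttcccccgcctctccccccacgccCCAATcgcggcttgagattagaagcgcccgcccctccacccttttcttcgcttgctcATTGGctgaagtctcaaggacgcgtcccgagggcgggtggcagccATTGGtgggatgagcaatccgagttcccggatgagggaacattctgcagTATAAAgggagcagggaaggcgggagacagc
HIST1H1B had 2 CCAAT matches and no exact TATAAA or octamer, while HIST1H2BK had 6 CCAAT matches, 3 TATAAA matches counted over both strands and the octamer. The search was for exact letters, so a near match such as the tatataa in the HIST1H1B bases was not counted. H2AFZ had 3 CCAAT matches and 1 TATAAA match. A match describes letters in this window and is no measurement of binding.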

How the data were processed

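Kept HUVECs of the 5% pdRBC library and the hRBC library, 1 each, were analysed. The deposited UMI counts per gene and barcode were made by the authors on GRCh38 with Cell Ranger 7.0.0, per the submitters' processing notes; neither annotation release nor use of strand is given in the sources used here. From these counts UMIs were summed over kept cells and scaled to CPM, in Python 3.11.15 with SciPy 1.17.1. A fold is a ratio of CPM with 0.5 UMIs added to each sum, with an exact Clopper-Pearson 95% interval; a gene was called at 1.5-fold with an interval that leaves out 1. There was no test, as there is 1 library per group. A count of 0 allows up to 3 UMIs, or 0.186 CPM in 5% pdRBC and 0.225 CPM in hRBC.

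Cells of 2000 or more UMIs were thinned to 2000 (seed 0) and called G2/M at 5 or more G2/M marker UMIs and at least as many as S UMIs (43 and 36 genes), S at 5 or more S UMIs and more than G2/M UMIs, and neither otherwise. No doublet caller was run and doublets were left in. Clusters, an alternative to the calls, were made with Scanpy 1.11.5 and python-igraph 0.11.9. Of the members, 39 matched GENCODE release 29 by ID and 2 by symbol. Members with 100 or more UMIs are given by value and the rest by counts, and of each regulator list 5 genes with the largest folds are named. Members and lists were chosen with earlier results of these data known. The fold calculation was tested on simulated data.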

Additional observations from a re-analysis of the deposited data

How the results depend on the processing

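Values are log2 folds, and the first of each set is the one reported. The replication fold of 5% pdRBC over hRBC was -0.62; it was -0.29 in cells of 5000 or more UMIs, -0.9998 with every cell weighted equally, -0.84 in thinned cells, -0.48 in cells called neither and, chosen after seeing the data, -0.21 at 10000 or more UMIs, -0.41 without HIST1H4C and -0.48 without HIST1H1E. The replacement fold was -0.08, against -0.14 with equal weights and -0.047 in cells called neither. Members lower in 5% pdRBC numbered 3, against 8 at 20 or more UMIs, 5 over all barcodes, 1 at 5000 or more and 1 at 10000 or more UMIs, and those higher 0, against 2 at 20 or more UMIs. HIST1H1E reversed, to 0.51, at 10000 or more UMIs; of 64 member folds under alternatives 51 moved by less than their interval.

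In 5% pdRBC, the G2/M fold of replication histones was 1.85, and 1.60 at 8 or more marker UMIs. Their S fold was 2.23, against 1.96 at 3 and 2.60 at 8 or more marker UMIs, and the S fold of replacement histones 0.96, against 0.77 at 3. In hRBC, the G2/M fold of replication histones was 1.43, against 1.72 at 3, 1.23 at 8, 1.65 with seed 1 and 1.71 by clusters, and that of replacement histones 0.81, against 0.87 at 8. Their S folds were 1.94 and, with seed 1, 2.27 for replication histones, and 0.72, 0.61 at 3 and 0.87 with seed 1 for replacement histones.

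Deeper over shallower cells gave -1.28 for replication histones in 5% pdRBC, against -1.89 between the outer ranges and -0.91 in cells called neither, and 0.28 for replacement histones, against 0.56 and 0.20 in the same settings. In hRBC it gave -1.22 for replication histones, against -0.99 in cells called neither and -0.78 without HIST1H1E, and 0.00 for replacement histones, against 0.065 in cells called neither. The cause was not tested. No paired analysis was possible because each group is 1 library, and no library could be left out. Most HIST genes had under 100 UMIs, which limits their folds.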

Other observations

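HIST1H4C UMIs were spread unevenly over cells: the 10 cells with most held 18.2% of its UMIs in 5% pdRBC, with at most 9 in 1 cell, and 19.9% in hRBC, with at most 23 in 1 cell. The 40 HIST symbols under the limit of 20 UMIs together held 118 UMIs in 5% pdRBC and 123 UMIs in hRBC over all barcodes, beside 1683 UMIs in 5% pdRBC and 2359 UMIs in hRBC for the 31 HIST genes that reached it.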
